A study of Daucus carota subsp. sativus with 2 samples.

Results

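Chromatin modifying enzymes were examined in carrot roots of an orange and a red variety. The members were the transcripts whose protein name in the deposited table carries the name of a histone or DNA modifying enzyme or a chromatin protein, and they were 16 of 19838 transcripts. The orange library came from the root of a hybrid carrot and the red library from the root of a Delhi carrot, which the series title calls modified and wild. Both are labelled Daucus carota subsp. sativus, strain sativus, untreated, and both were sequenced as poly(A)-selected RNA. The sources used here do not state the age or growth of the plants, or how many roots went into each library. With 1 library per variety there is no replicate check, so every difference is one between these libraries and carries no p-value of its own.

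Chromatin is DNA wound on histones, and enzymes that add marks to it (writers) or take them off (erasers) change how readily genes are read. Acetyl groups on histone lysines are placed by acetyltransferases and generally go with active genes, and histone deacetylases remove them. Lysine and arginine methyltransferases place methyl groups whose effect depends on the residue, and DNA methyltransferases place them on cytosine, which in plants keeps transposons silent. In Arabidopsis, deacetylases also act in root cell patterning and in responses to light and stress.

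By name, 6 members were writers, 8 were erasers and 2 were other chromatin proteins. The writers were 3 histone-lysine N-methyltransferases, 1 histone acetyltransferase, 1 protein arginine N-methyltransferase and 1 DNA (cytosine-5)-methyltransferase. The erasers were all histone deacetylases, and no member (0) carried a demethylase name. That count speaks only of names, since the protein name of 16121 transcripts (81.3%) was uncharacterized or missing. The other 2 were a chromatin-remodeling complex ATPase and a protein named EBS-like. A locus name of the DCAR form was given for 11 members, 4 had a gene name of another form, and the DNA methyltransferase, transcript rna36997, had none. No member (0) matched the RefSeq gene table, so no position or sequence is given, and no locus had another transcript under the same gene name.

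The orange library held 7432754 counts and the red library 11310179. Scaled counts are counts over the library's size factor, and transcripts averaging 10 or more of them over both libraries are termed measured, which held for 14868 transcripts and for 12 members. A transcript was called when its ratio was at least 2-fold in either direction and the 95% exact interval of the ratio excluded equality; the intervals cover counting error only and no spread between plants. By this rule 24.4% of measured transcripts were called higher in orange and 30.6% higher in red, or 33.8% and 24.7% when libraries were scaled to total counts. Transcripts of green tissue took 0.314% of counts in orange and 4.28% in red. Of the 41 measured, 33 were called higher in red and 3 higher in orange. Summed scaled counts of the list were 24865 in orange and 453841 in red. Of the 45 listed, 4 had 0 reads in orange, among them the RuBisCO small chain RBCS. Another RuBisCO small chain, MIMGU_mgv1a015027mg, went the other way, with 172 counts in orange and 25 in red. Phloem transcripts took 0.0497% in orange and 0.312% in red, where all 5 called higher in red were copies of phloem protein 2-2, while a sieve element occlusion transcript had 109 counts in orange and 37 in red. Xylem and wall transcripts took 0.342% in orange and 0.216% in red, with summed scaled counts of 27113 and 22883. Of the 21 measured, 14 were called higher in orange and 1 higher in red. Transcripts of dividing cells, mostly core histones, took 0.103% in orange and 0.0363% in red. Of the 31 measured, 12 were called higher in orange and 10 higher in red. The part of tissue makeup in the results that follow was not tested, and in whole roots a change in the share of cells of a type cannot be told apart from a change in RNA per cell.

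Most measured chromatin enzymes differed by less than 2-fold between the 2 libraries, and 4 differed by more. Of the 12 measured members, 1 was called higher in orange, the deacetylase DCAR_026167, and 3 were called higher in red, the deacetylase DCAR_001205, the methyltransferase CDL12_12917 and the DNA methyltransferase. The other 8 (of 12) were not called, as were 45.0% of all measured transcripts. With total-count scaling, which shifts every log2 ratio by 0.42 toward orange, 2 members were called higher in orange and 2 higher in red. The median log2 fold was -0.04 for the members and -0.06 for all measured transcripts. The largest difference in either direction was in a deacetylase, so the erasers spanned a wider range of log2 folds (-2.89 to 1.74) than the writers (-2.14 to 0.70).

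**Figure D1:**
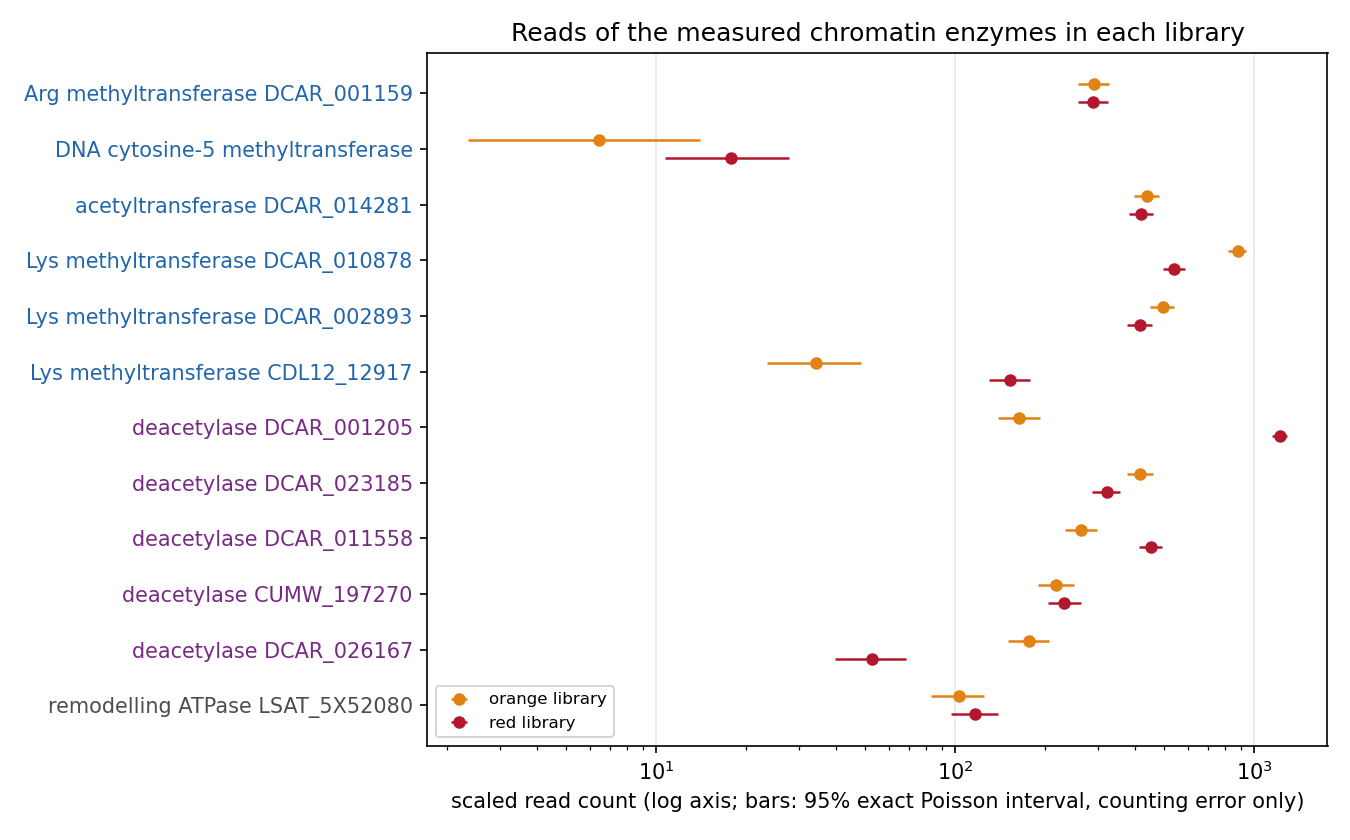
Scaled read counts (log axis) of the 12 measured members in the orange and the red library, with 95% exact Poisson intervals; label colours mark writers (blue), erasers (purple) and the remodelling ATPase (grey). The intervals of the 2 libraries lie far apart for deacetylase DCAR_001205 (163 in orange, 1214 in red), deacetylase DCAR_026167 (176 and 52.5) and methyltransferase CDL12_12917 (34.1 and 152).

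Among the writers, the 3 histone-lysine N-methyltransferases did not move together. DCAR_010878 had 823 counts in orange and 575 in red, or 878 and 539 scaled counts, a ratio of 1.63 (1.46 to 1.82) that rose past the call, to 2.18, with total-count scaling. DCAR_002893 had 462 counts in orange and 441 in red, a ratio of 1.19 (1.04 to 1.36). CDL12_12917 went the other way, with 32 counts in orange and 162 in red, and was 4.45-fold lower in orange (3.03 to 6.72). Enzymes of this class place methyl groups on histone lysines, and the deposited names do not say which lysine.

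Ratios between members within a library do not depend on how the libraries are scaled. Reads of CDL12_12917 relative to those of DCAR_010878 were 7.25-fold lower in orange than in red (4.85 to 11.1). As a share of all histone-lysine methyltransferase reads, CDL12_12917 made up 2.43% in orange (1.67 to 3.41) and 13.8% in red (11.8 to 15.9), and DCAR_010878 62.5% in orange (59.8 to 65.1) and 48.8% in red (45.9 to 51.7). DCAR_002893 was at 35.1% in orange and 37.4% in red, with intervals that overlap. The table gives no transcript lengths, so these are shares of reads and not of molecules. Summed over the 3 enzymes, scaled counts were 1405 in orange and 1104 in red, a ratio of 1.27 (1.18 to 1.38). With total-count scaling that ratio was 1.70.

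The acetyltransferase and the arginine methyltransferase were nearly level. Histone acetyltransferase DCAR_014281 had 409 counts in orange and 446 in red, a ratio of 1.04 (0.911 to 1.197). Protein arginine N-methyltransferase DCAR_001159, of a family that methylates histones and RNA-binding proteins, had 272 counts in orange and 308 in red, a ratio of 1.01 (0.851 to 1.19). For both, the interval holds equality and leaves out a 2-fold difference in counting terms, and with total-count scaling the ratios were 1.395 and 1.34.

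The DNA (cytosine-5)-methyltransferase had the fewest reads of the measured members, with 6 counts in orange and 19 in red. It was 2.78-fold lower in orange, but the interval runs from 1.07 to 8.51 and 97.9% of measured transcripts had a higher mean scaled count. Its call ended when libraries were scaled to total counts (2.08-fold) and it was no longer measured with a minimum mean of 50. The table holds 2 further transcripts named cytosine-specific methyltransferase, with the same enzyme number but outside the naming rule, which were looked at after their values were seen. DCAR_028247 had 98 counts in orange and 514 in red and was 4.61-fold lower in orange (3.70 to 5.78). DCAR_009626 had 22 counts in orange and 55 in red and was 2.20-fold lower (1.32 to 3.78), or 1.64-fold with total-count scaling. All 3 transcripts with these names had fewer scaled counts in orange.

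Of the 6 writers, all measured, none (0) was called higher in orange and 2 (33.3%) higher in red, the second a share near the 30.6% of all measured transcripts, and their median log2 fold was 0.04. With total-count scaling 1 writer was called in each direction. Summed scaled counts of the writers were 2138 in orange and 1828 in red, a ratio of 1.17 (1.10 to 1.25). With total-count scaling that ratio was 1.56.

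**Figure D2:**
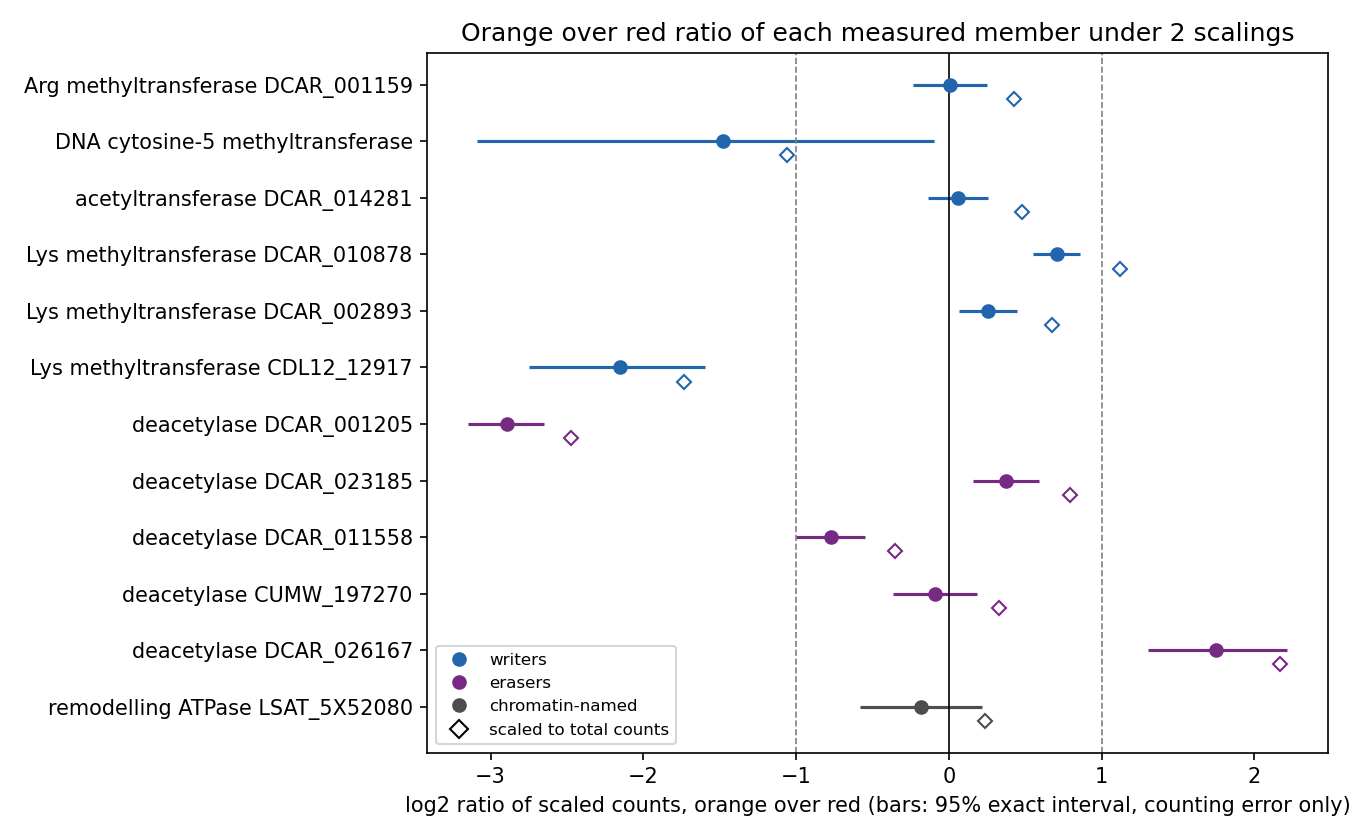
Log2 ratio of scaled counts, orange over red, for the 12 measured members, with 95% exact intervals for counting error (filled circles) and the same ratio after scaling to total counts (open diamonds); dashed lines mark 2-fold. Total-count scaling moves every diamond to the right by 0.42, which takes DCAR_010878 past 2-fold, while DCAR_001205, CDL12_12917 and DCAR_026167 stay past it on their own sides. The DNA methyltransferase also stays past 2-fold, lower in orange, but is no longer called.

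Histone deacetylase DCAR_001205 showed the largest difference among the measured members. It had 153 counts in orange and 1295 in red, or 163 and 1214 scaled counts, and was 7.43-fold lower in orange (6.28 to 8.85). Only 13.1% of measured transcripts had a log2 fold below its -2.89. With total-count scaling it was 5.56-fold lower in orange. Relative to the reads of the arginine methyltransferase DCAR_001159, it had 0.563 reads per read in orange (0.458 to 0.688) and 4.20 in red (3.71 to 4.78). DCAR_001159 was nearly level (ratio 1.01), so this restates the 7.43-fold difference. Relative to each member that was not called, DCAR_001205 was lower in orange by 4.36-fold (against DCAR_011558) to 12.1-fold (against DCAR_010878).

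Histone deacetylase DCAR_026167 went the other way. It had 165 counts in orange and 56 in red, a ratio of 3.35 (2.46 to 4.63), and 4.48 with total-count scaling. Against DCAR_001205, its reads were 24.9-fold higher in orange than in red (17.4 to 35.9). DCAR_026167 has the highest and DCAR_001205 the lowest ratio of the measured members. Their gap therefore had to be the widest of the 66 pairs, and it restates the ratios of these members.

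The other 3 measured deacetylases differed less. DCAR_023185 had 389 counts in orange and 342 in red, a ratio of 1.30 (1.12 to 1.502). DCAR_011558 had 247 counts in orange and 480 in red and was 1.71-fold lower in orange (1.46 to 1.998), or 1.28-fold with total-count scaling. CUMW_197270 had 204 counts in orange and 247 in red, a ratio of 0.940 (0.777 to 1.14), which became 1.26 with total-count scaling. Of the 10 pairs of measured deacetylases, 8 had a ratio to each other that differed at least 2-fold between the libraries, with an interval that excluded equality. The count was 8 of 15 for pairs of writers and 35 of 66 for all pairs, and among the 28 pairs of members that were not called it was 3. Apart from the pair of DCAR_011558 and DCAR_023185, each of the 8 deacetylase pairs held DCAR_001205 or DCAR_026167, which were both called. The pairs reuse the member ratios that set the calls and are not separate observations. Members not called all lay under 2-fold, so few of their pairs could differ 2-fold. The share for pairs drawn from all measured transcripts was not computed, so these counts are descriptions only.

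The last 3 deacetylases were near the limit of detection. DCAR_018526 had 0 counts in orange and 5 in red, and the interval of its ratio, 0 to 1.24, holds equality. DCAR_013351 had 0 counts in orange and 2 in red, and DCAR_022965 had 1 in each, so no difference was detectable at this depth for any of the 3.

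The makeup of the deacetylase reads differed between the libraries. DCAR_001205 gave 13.2% of them in orange (11.3 to 15.3) and 53.3% in red (51.3 to 55.3). DCAR_023185 gave 33.6% in orange (30.8 to 36.4) and 14.1% in red (12.7 to 15.5), and DCAR_026167 14.2% in orange (12.3 to 16.4) and 2.31% in red (1.75 to 2.98). DCAR_011558 held 21.3% in orange and 19.8% in red, with overlapping intervals. In red, more deacetylase reads came from DCAR_001205 than from all other deacetylases together, and in orange no transcript gave more than the 33.6% of DCAR_023185.

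**Figure D3:**
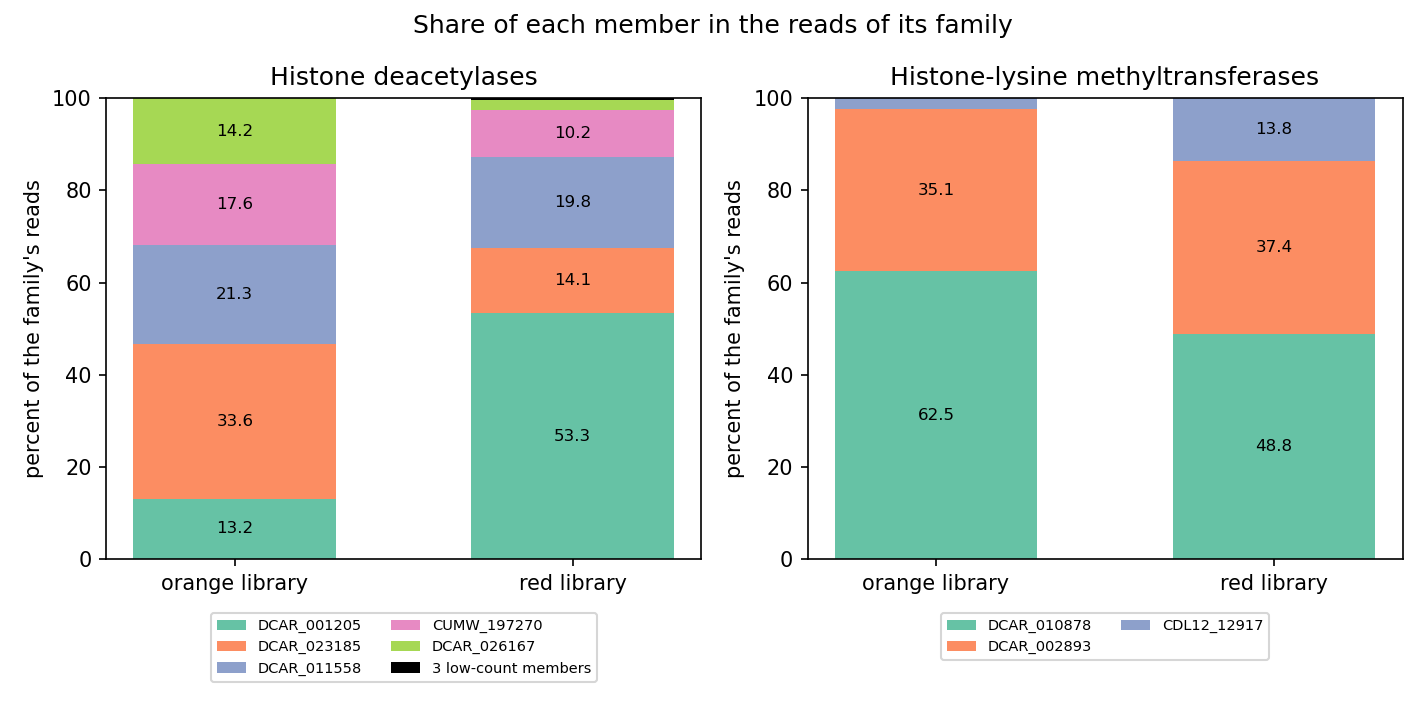
Share of each member in the reads of the histone deacetylases (left) and of the histone-lysine N-methyltransferases (right), in percent of the family's reads, for the orange and the red library; segments under 5% carry no number. DCAR_001205 holds 13.2% of deacetylase reads in orange and 53.3% in red, and CDL12_12917 holds 2.43% of the methyltransferase reads in orange and 13.8% in red.

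Of the 5 measured erasers, 1 (20%) was called higher in orange and 1 (20%) higher in red, with a median log2 fold of -0.09. The shares over all measured transcripts were 24.4% and 30.6%. Summed over all 8, scaled counts were 1237 in orange and 2275 in red, 1.84-fold lower in orange. Without DCAR_001205 the sums were 1073 in orange and 1062 in red, a ratio of 1.01 (0.928 to 1.10). The lower sum in orange thus rested on that transcript. With total-count scaling the ratio was 0.726 for all 8 and 1.35 without DCAR_001205.

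Set against each other, there were 1.73 writer reads per eraser read in orange (1.61 to 1.86) and 0.804 in red (0.757 to 0.853). The quotient of these ratios was 2.15 (1.96 to 2.37) and does not depend on scaling. Without DCAR_001205 it was 1.16 (1.04 to 1.29), from 1.99 writer reads per eraser read in orange and 1.72 in red. With the 2 cytosine-specific methyltransferases counted as writers, the ratios were 1.83 in orange and 1.04 in red. Acetyltransferase reads per deacetylase read were 0.353 in orange (0.314 to 0.395) and 0.184 in red (0.166 to 0.203). The names do not say which lysines these enzymes act on. Without DCAR_001205 the deacetylases had 1006 counts in orange and 1133 in red, beside 409 and 446 for the acetyltransferase. This difference too rested largely on DCAR_001205.

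The 2 chromatin proteins outside the writers and erasers did not differ by 2-fold or had too few reads to say. The chromatin-remodeling complex ATPase (LSAT_5X52080), an enzyme of the kind that slides or evicts nucleosomes with energy from ATP, had 96 counts in orange and 124 in red, a ratio of 0.882 (0.668 to 1.16). The EBS-like protein (LOC103711576) had 0 counts in orange and 4 in red, and the interval of its ratio, 0 to 1.72, holds equality. EBS is known from Arabidopsis as a reader of histone methylation that delays flowering.

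**Figure D4:**
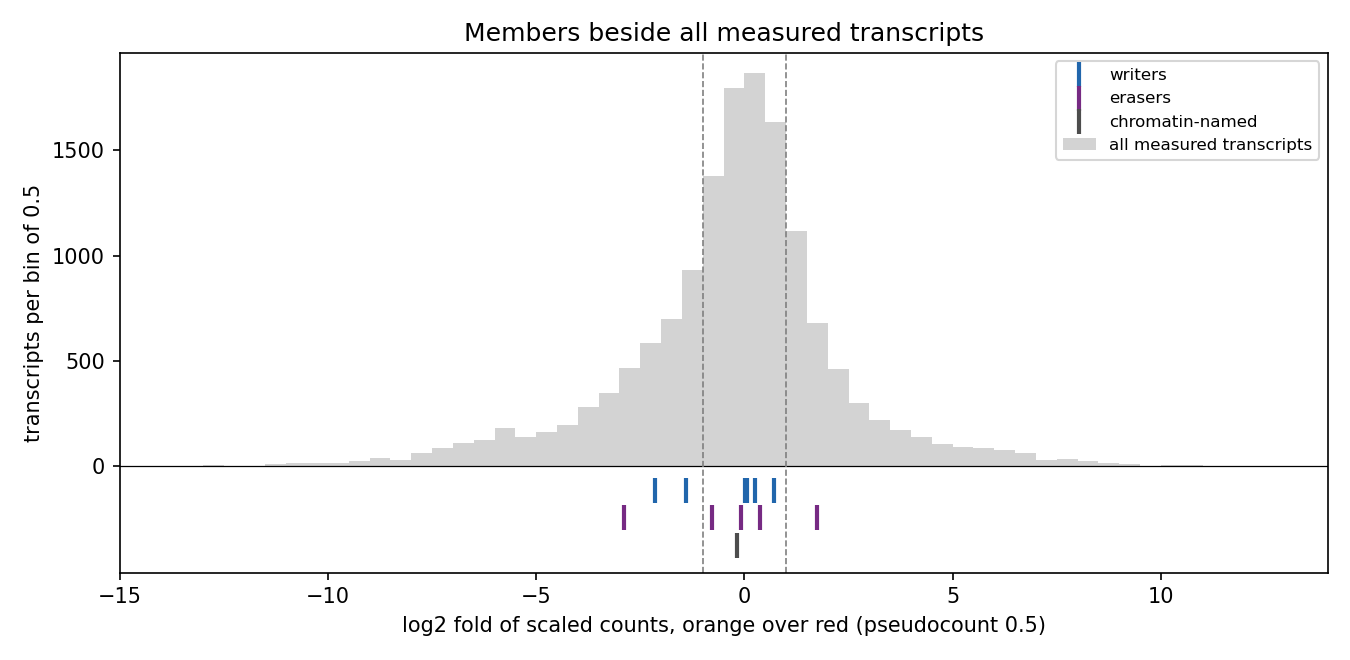
Number of measured transcripts per bin of log2 fold, orange over red (grey), with the 12 measured members as ticks below, by class; dashed lines mark 2-fold. The ticks of 8 members fall between the lines, and the outer ones are erasers at -2.89 and 1.74.

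In the deposited comparison the authors listed 1 member as up, 3 as down, 9 as neutral, 3 as found only in red and 0 as found only in orange. The smallest p-value for a member in the authors' deposited table was 0.109, for DCAR_001205, with an adjusted p of 1. No member (0) was in their lists of transcripts at p or q up to 0.05. The sources used here do not state how a dispersion was set for those values with 1 library per variety.

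Other chromatin genes were taken from 9 lists of protein names, the members left out. Over all 9 lists, 16 of 53 measured transcripts were called higher in orange, a larger share than the 24.4% of all measured transcripts. Another 12 were called higher in red, a smaller share than the 30.6% of all. Leaving aside the core histones, 4 of 27 were called higher in orange and 4 higher in red, in each direction a smaller share than over all measured transcripts. Single lists rest on 2 to 7 measured transcripts, so their counts are given as descriptions only. The methyl donor cycle, which makes and recycles the S-adenosylmethionine that histone and DNA methyltransferases share with many other methylations, had 3 of 7 called higher in orange and none (0) in red, with a median log2 fold of 0.65. S-adenosylmethionine synthase DCAR_012308 had 24310 counts in orange and 4581 in red, a ratio of 6.04 (5.85 to 6.24). Adenosylhomocysteinase DCAR_026653, which clears the by-product of methylation, had 7307 in orange and 2209 in red, a ratio of 3.77. The other adenosylhomocysteinase, DCAR_024107, had more reads, 8444 in orange and 6971 in red, and its ratio of 1.38 was not called. The exception in direction was the synthase DCAR_025301, with 1306 counts in orange and 2773 in red, 1.86-fold lower in orange. DCAR_026653, DCAR_024107 and DCAR_025301 were chosen after their values were seen.

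The list of acetyl donor enzymes and NAD-dependent deacylases had 1 of 2 measured transcripts called higher in red. Acetyl-coenzyme A synthetase DCAR_014314, which makes acetyl-CoA from acetate, had 200 counts in orange and 834 in red and was 3.66-fold lower in orange (3.13 to 4.30). The sirtuin-type deacylase DCAR_009593, a deacylase that uses NAD and lies outside the classical deacetylases, had 158 in orange and 323 in red and was 1.80-fold lower (1.48 to 2.19), short of the call. The median log2 fold of these 2 was -1.36.

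In the RNA-directed DNA methylation and small RNA list, 1 of 5 was called higher in orange and 1 in red (median -0.05), both RNA-dependent RNA polymerases, which copy RNA into the double strands from which small RNAs are cut. DCAR_018379 had 35 counts in orange and 19 in red, a ratio of 2.10 (1.17 to 3.88). DCAR_023950 had 4 in orange and 74 in red and was 16.2-fold lower in orange (6.09 to 61.2). The transcript with most reads in the list, an Argonaute/Dicer protein (Ccrd_016876), had 1396 in orange and 1647 in red, a ratio of 0.965 (0.898 to 1.04).

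Of the DNA glycosylase and lyase list, 1 of 2 measured transcripts was called higher in red (median -1.23). Both are named DNA-(apurinic or apyrimidinic site) lyase. DCAR_019347 had 17 counts in orange and 76 in red and was 3.93-fold lower in orange, and DCAR_023882 had 79 and 128, a ratio of 0.703 (0.524 to 0.937). Among readers of marks, 1 of 4 was called, the PHD finger protein ING DCAR_009678, with 70 counts in orange and 260 in red (3.26-fold lower in orange; list median 0.16). PHD finger protein Alfin1 (L484_016484) had 421 and 405, a ratio of 1.18.

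No call (0) was made among the measured transcripts of 3 lists (medians 0.13, 0.18 and 0.12). These were 2 transcripts with polycomb in their name, 2 histone chaperones, and 3 remodelling ATPases and helicases. The enhancer of polycomb-like protein DCAR_022329 had 288 counts in orange and 301 in red, a ratio of 1.09 (0.924 to 1.28). The FACT subunit SSRP1 (DCAR_011159), which helps polymerases pass nucleosomes, had 591 in orange and 822 in red, a ratio of 0.819 (0.735 to 0.911). The RuvB-like helicase DCAR_006059 had 234 in orange and 466 in red and was 1.75-fold lower in orange. Core histones are the substrate of the histone writers and erasers. Of 26 measured core histone transcripts, 12 (46.2%) were called higher in orange and 8 (30.8%) higher in red, against 24.4% and 30.6% of all measured transcripts. Their median log2 fold was 0.80, and they took 0.0970% of counts in orange and 0.0297% in red. That gap in share rested largely on H2A transcripts rna3849 (of DCAR_002780) and DCAR_010013. The most abundant, rna3849, had 3063 counts in orange and 139 in red, and DCAR_010013 had 1119 and 84. Another transcript of DCAR_002780, rna8755, went the other way, with 92 in orange and 173 in red. DCAR_010013 and rna8755 were picked with their counts known. Furthest toward red was H2A transcript DCAR_017885, with 0 counts in orange and 209 in red.

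**Figure D5:**
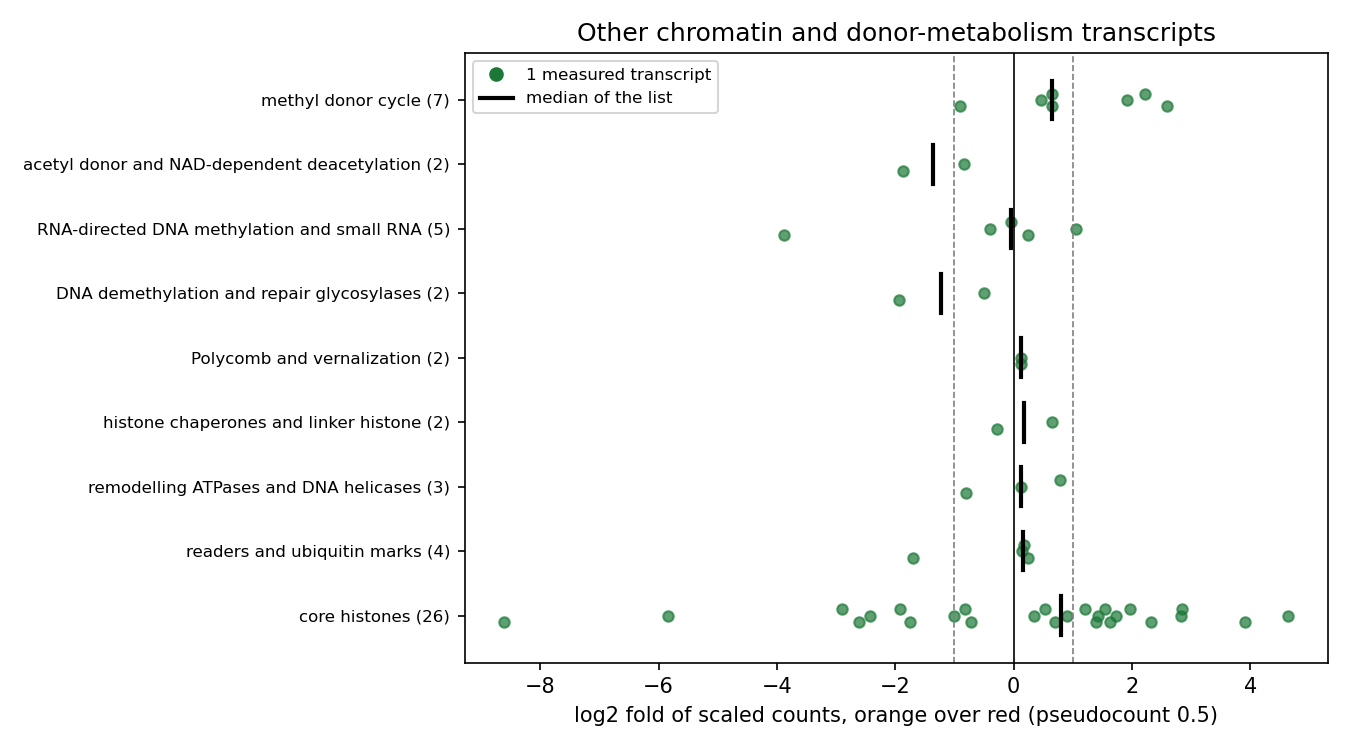
Log2 fold of scaled counts, orange over red, for each measured transcript (points) of 9 lists of chromatin and donor-metabolism genes, with the list median (bar) and the number measured in parentheses; dashed lines mark 2-fold. The methyl donor cycle has 6 of its 7 points right of equality, and both points of the acetyl donor list lie left of it.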

How the data were processed

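The authors deposited whole-number read counts per transcript for 1 orange and 1 red library, with protein and gene names. The deposited normalised counts are a signal equal to the read count times 1 constant per library (1.07 for orange, 0.937 for red). The fold, a ratio of orange over red, its log2, and the p-value and adjusted p-value in the authors' deposited tables were copied. Tools listed in the submitters' processing notes are DESeq, HTSeq, HISAT, cutadapt and FastQC; the sources used here give no version, setting, strand use or genome build. Near-identical copies of a family can exchange reads in counting.

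Groups came from the sample titles. Size factors were set by the median of ratios (0.937 for orange, 1.07 for red), the inverse of the authors' constants. Log2 folds used a pseudocount of 0.5, and ratios in the text none. Intervals at 95% are Clopper-Pearson for ratios and shares, conditional exact for quotients of ratios and Poisson in the plot of counts; they cover counting error only. The fold rule was tested on simulated counts that carried Poisson counting error only. That test held no spread between plants and cannot show how the rule fares with such spread. The rule for naming takes each measured member that was called, that had a mean scaled count of at least 200 or that led its family, which named all 12. For other lists it takes the most abundant transcript and, in each direction, the called one of largest log2 fold. Members and lists were chosen with earlier results of these data known. Python 3.11.15, scipy 1.17.1, and edgeR 4.0.16 (for the alternative TMM scaling, with no test) were used. No test between varieties was run, since there was 1 library of each.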

Additional observations from a re-analysis of the deposited data

How the results depend on the processing

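Total-count scaling moved log2 folds by 0.42 toward orange, and the median over all measured transcripts to 0.37; 33.8% of transcripts were then called higher in orange and 24.7% higher in red. Under it 1 writer was called higher in orange, the histone-lysine N-methyltransferase DCAR_010878 (log2 fold 1.12), and 1 higher in red. The medians became 0.45 for writers, 0.33 for erasers, 0.67 for histone-lysine methyltransferases and 0.24 for the remodelling ATPase, so the signs of the eraser and ATPase medians turned. With no filter on low counts the eraser median was -0.43 and that of the 2 other chromatin proteins -1.63, since members with 0 to 5 reads entered. With a minimum mean of 50, 1 writer was called higher in red, since the DNA methyltransferase was no longer measured. Without DCAR_001205, an alternative added after seeing the data, writer reads per eraser read were 1.99 in orange and 1.72 in red. With the cytosine-specific methyltransferases added, also chosen after seeing the data, the ratio was 1.04 in red. DCAR_001205 and CDL12_12917 were called higher in red, and DCAR_026167 higher in orange, under all 7 of the settings other than those added later. TMM scaling, a pseudocount of 5, summing transcripts of a locus and leaving out members named for tRNA or rRNA (there were 0) changed no call of a member. No paired analysis was possible because each variety has 1 library, and for the same reason no replicate could be left out. Families with 1 member are given as that member. Depth limits the 4 members under the minimum mean and the DNA methyltransferase.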

Other observations

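Other transcripts named for lysine methylation, outside the naming rule and looked at after their values were seen, differed by under 2-fold in both scalings. These are 4 transcripts named protein-lysine N-methyltransferase, enzymes that can act on proteins other than histones. DCAR_021451 had 583 counts in orange and 472 in red, a ratio of 1.41 (1.24 to 1.59), and LOC107860096 had 654 and 544, a ratio of 1.37 (1.22 to 1.54). The 2 transcripts of DCAR_013470 had 406 counts in orange and 508 in red (ratio 0.910, 0.797 to 1.04), and 146 in orange and 172 in red (ratio 0.966, 0.770 to 1.21). With total-count scaling the 4 ratios ran from 1.22 to 1.88.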
